A study of Mus musculus with 6 samples.

Results

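Heat shock proteins are molecular chaperones, and 10 of their genes were examined here in the hearts of mice that lack NBCe1-B and NBCe1-C. The genes were chosen by name, as every row of the deposited table whose Ensembl mouse identifier corresponds to *Hspa1a*, *Hspa1b*, *Hspa8*, *Hsp90aa1*, *Hsph1*, *Dnajb1*, *Hspb1*, *Hspb6*, *Hspb7* or *Cryab*. All 10 were found among the 16018 genes of the table, each in 1 row, and all 10 passed the filter on low values. RNAseq, in which the RNA of a tissue is turned into a library of fragments that are sequenced and counted gene by gene, was performed on the hearts of 3 female NBCe1-B/C KO mice (KOb/c) and 3 female wild-type mice (WT). All animals were 4 to 5 weeks of age and on a C57BL/6J background, bred from heterozygous parents. KOb/c mice lack the variants of the electrogenic sodium bicarbonate cotransporter NBCe1 that are made from the upstream promoter of *Slc4a4*, in every organ, while the kidney variant NBCe1-A is retained. The loss is not restricted to heart muscle, so effects of its loss there and in other organs cannot be told apart.

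Chaperones bind proteins that are unfolded or partly folded and keep them from clumping. HSP70 proteins do so in cycles driven by ATP. J-domain proteins (HSP40) deliver the clients and trigger ATP hydrolysis, and HSP110 proteins release the nucleotide so that the cycle can restart. HSP90 acts later, on kinases, receptors and other proteins that are nearly folded. Small heat shock proteins need no ATP and hold clients until the HSP70 machine takes over. In the heart, they bind to desmin, titin, filamin and actin, and the gene products αB-crystallin (*Cryab*), HSP20 (*Hspb6*) and cvHSP (*Hspb7*) are plentiful in the muscle cell. *Hspa1a*, *Hspa1b*, *Dnajb1* and *Hsph1* are the classic genes that heat shock factor 1 (HSF1) switches on in stress, through heat shock elements that are made of inverted repeats of GAA.

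The library labelled KOb/c replicate 2 does not match its label in the targeted gene. The normalized count of *Slc4a4* was 264, 944.8 and 268.7 in KOb/c replicates 1, 2 and 3, against 675.1, 822.2 and 788.8 in WT hearts 1, 2 and 3. Values of each of the 10 genes without that library are therefore given beside those with it. A normalized count is the number of reads on a gene divided by a size factor of its library, with no scaling to gene length. Between 41364857 and 49100802 reads lay on genes in each library, and each KOb/c library was deeper than each WT library. Cardiomyocyte markers were high in every library, with 8 of 8 listed genes in the table and a summed normalized count of 2773240 to 3096700 in KOb/c and 2483850 to 2584690 in WT hearts.

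HSF1 acts through heat shock elements, so the sequence before the start of *Hspa1a* and *Hspa1b* is shown first. *Hspa1a* (ENSMUSG00000091971; chromosome 17 of GRCm38, 34969190 to 34972156) and *Hspa1b* (ENSMUSG00000090877; chromosome 17, 34956436 to 34959238) lie on the reverse strand, 9951 bp apart. The 120 bases before the start of each gene were taken from RefSeq (GRCm38.p6), at chr17:34972157-34972276 and chr17:34959239-34959358. They are written 5′ to 3′ on the reverse strand, and capitals mark inverted repeats with the letters of a heat shock element. Whether HSF1 binds there was not tested.
Hspa1a: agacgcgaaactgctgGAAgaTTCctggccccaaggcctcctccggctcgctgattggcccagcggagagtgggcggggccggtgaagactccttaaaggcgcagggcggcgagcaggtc
Hspa1b: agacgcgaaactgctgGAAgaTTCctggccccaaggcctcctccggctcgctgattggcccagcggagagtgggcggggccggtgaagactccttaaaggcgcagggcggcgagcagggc
Of these 120 positions, 119 were identical, as were 247 of the 250 before the start. Both genes are thus almost the same sequence up to their first transcribed base, and the element stands at the same place in both, from base 104 to base 97 before the start.

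Heat shock elements were searched for as GAANNTTC or TTCNNGAA, each of which reads the same on both strands. RefSeq windows from 250 bases before to 50 bases after a start were found for 7 of the 10 genes, in 10 windows. At least 1 match was found in 6 of these 10 windows, which belong to 5 of the 7 genes, against 15.1% of all 32851 windows and 11.8% of the windows of genes tested. The 2 windows of *Hsph1* overlap and hold the same matches, so they are not separate finds. A share by gene was not at hand for all genes. The matches before the start of the other genes are shown with 6 bases on each side, in the direction of the gene, since 2 small heat shock protein genes carry the same letters as the heat-inducible genes. They lie at chr5:149636356-149636375 on the reverse strand for *Hsph1*, before both of its RefSeq starts but inside the longer span given for the gene below. For *Hspb1* they lie at chr5:135887796-135887815 and chr5:135887816-135887835. For *Hspb6* the match lies at chr7:30553175-30553194, where the start is the later of 2 annotated ones.
Hsph1: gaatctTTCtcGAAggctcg
Hspb1, first: acaagaGAAgtTTCcagatg
Hspb1, second: ggggcaGAAccTTCctggcc
Hspb6: attattGAAgtTTCtaaata
In *Hsph1*, 2 overlapping matches that form a run of 3 alternating repeats also lay within the 50 bases after the start. Such a run, anywhere in the window, was held by 0.603% of all windows. The windows of *Dnajb1* and *Hspb7* held no match with these letters. No window was at hand for *Hspa8*, *Hsp90aa1* and *Cryab*.

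The level of the 10 genes spanned almost 3 orders of magnitude. To compare genes, the normalized count was divided by the length of the longest annotated transcript. In WT hearts, *Cryab* stood highest with 32362 ± 2440 normalized counts per kb (SD, n = 3), ahead of *Hspb7* with 26607 ± 1620. *Hspa8*, the HSP70 that cells make at all times, followed with 12607 ± 351, *Hspb6* with 9508 ± 904 and *Hspb1* with 5651 ± 456. *Hsp90aa1*, the inducible cytosolic HSP90, stood at 1394 ± 86.6. *Dnajb1* had 411 ± 85.9 and *Hsph1* had 309.7 ± 47.5, and their WT values overlapped. The genes of the stress-inducible HSP70 were lowest, with 54.6 ± 17.8 for *Hspa1b* and 44.9 ± 11.9 for *Hspa1a*, which overlapped as well. All other neighbours in this order were apart in each WT library. In KOb/c hearts, *Hspb6* (11693 ± 1165 per kb) and *Hspa8* (11053 ± 633 per kb) overlapped and had changed places, as had *Hsph1* (387 ± 53.9 per kb) and *Dnajb1* (347.2 ± 89.3 per kb), and *Cryab* (35705 ± 3129 per kb) overlapped with *Hspb7* (30603 ± 5398 per kb). The 10 genes together made up 0.43% ± 0.0266 of all normalized counts in KOb/c and 0.422% ± 0.0215 in WT hearts (SD, n = 3).

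**Figure D1:**
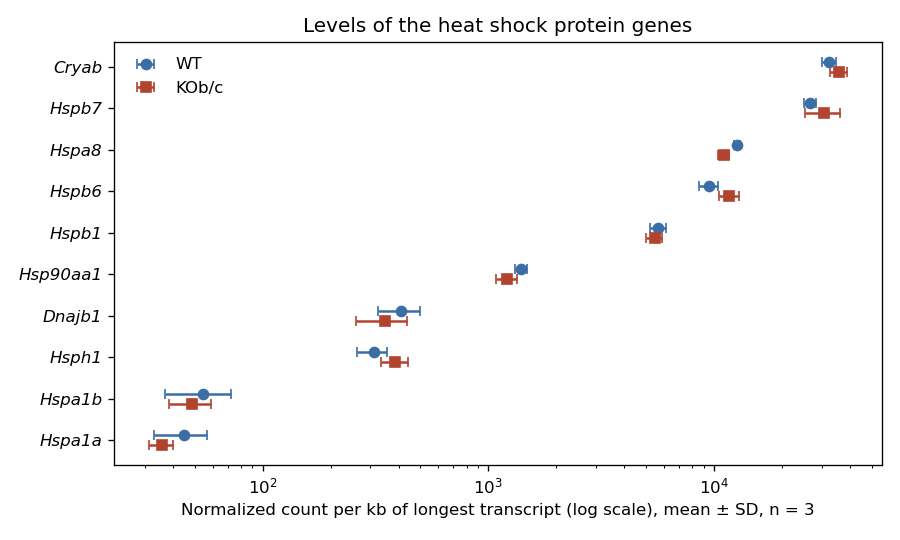
Level of each gene in normalized counts per kb of its longest annotated transcript, on a log axis, with WT as blue circles and KOb/c as red squares (mean ± SD, n = 3). *Cryab* and *Hspb7* stand highest and *Hspa1a* and *Hspa1b* lowest in both genotypes.

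No chaperone gene passed the test between the genotypes. The comparison asked which heart transcripts differ when NBCe1-B and NBCe1-C are absent. In limma on log2(normalized count + 1), with Benjamini-Hochberg adjustment over 16016 genes, 0 of the 10 genes and 0 of all genes (0.0%) had an adjusted p under 0.05. The paper, by contrast, states that a large number of genes differ significantly between WT and KOb/c hearts in this RNAseq. It names neither the test nor the threshold. Count tests were not run here, so the 0 holds for limma on log values only. An unadjusted p under 0.05 was found for 4 of the 10 genes, against 3764 or 23.5% of all genes. Among these 4, *Hsph1* and *Hspb6* were higher and *Hspa8* and *Hsp90aa1* were lower in KOb/c. The values of KOb/c and WT did not overlap for 2 of the 10 genes, *Hspb6* and *Hspa8*, against 30.2% of all genes. Without KOb/c replicate 2, 2 of the 10 genes (*Hspb6* and *Hsp90aa1*) had an unadjusted p under 0.05, against 20.8% of all genes, and 4 (*Hspb6*, *Hspa8*, *Hsp90aa1* and *Cryab*) had groups that did not overlap, against 40.1%. The median log2 fold change of the 10 genes was -0.09, against -0.00 over all genes tested, and -0.01 without KOb/c replicate 2. It was 0.17 for the 4 small heat shock proteins, of which 3 were higher, and -0.20 for the other 6 genes, of which 5 were lower. The median of the 4 small heat shock proteins was 0.06 without KOb/c replicate 1, 0.11 without WT replicate 3 and 0.09 with all libraries rescaled to the same total. In whole hearts, fewer cells that make a transcript and less transcript per cell cannot be told apart.

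**Figure D2:**
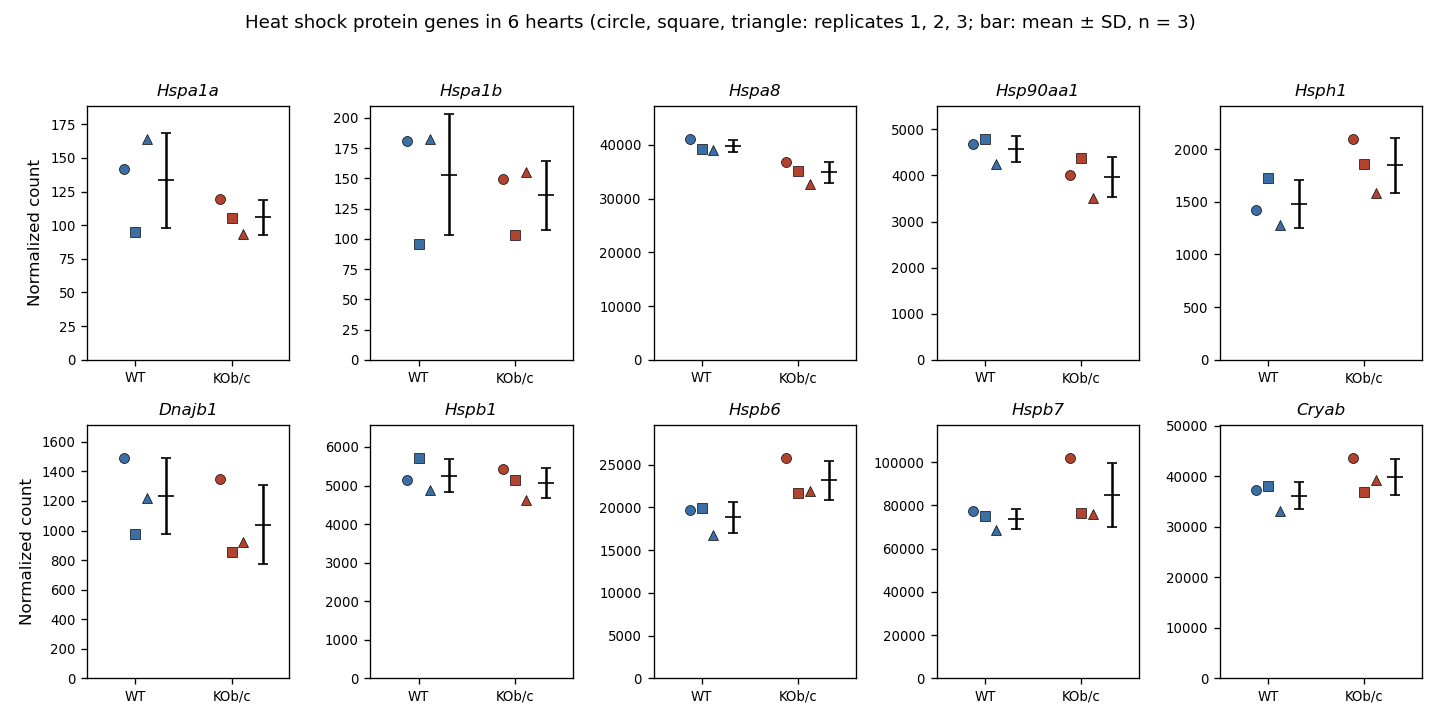
Normalized count of each gene in the 6 hearts, with WT in blue, KOb/c in red, the replicate number by symbol and the mean ± SD (n = 3) beside the points. *Hspb6* was higher in each KOb/c heart than in each WT heart and *Hspa8* was lower, while the groups of the other 8 genes overlapped.

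*Hspa8* (ENSMUSG00000015656; chromosome 9, 40800984 to 40810087) encodes HSC70, the constitutive HSP70 that folds new proteins, uncoats clathrin vesicles and takes part in chaperone-mediated autophagy. Its normalized count was 36764, 35162 and 32793 in KOb/c replicates 1, 2 and 3, and 41086, 39291 and 39058 in WT hearts 1, 2 and 3. Each KOb/c heart was below each WT heart. KOb/c hearts had 0.876 times the WT level (95% interval 0.78 to 0.983), or -0.19 on the log2 scale (standard error, SE, 0.07, limma adjusted p = 0.166). An exact two-sided permutation test gave p = 0.1, the smallest that 3 hearts against 3 allow. Without KOb/c replicate 2, the log2 fold change was -0.20. Of the stretches of 150 bases in its longest transcript, 22.4% also occur in transcripts of 4 other annotated genes, whose reads the counting may have left out or shared.

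*Hspa1a* and *Hspa1b* encode inducible HSP70. *Hspa1a* was counted at 119.1, 105.4 and 93.1 in KOb/c replicates 1, 2 and 3, and at 141.4, 94.6 and 164 in WT hearts 1, 2 and 3. *Hspa1b* was counted at 149.9, 103.4 and 155.2 in KOb/c, and at 181.3, 95.6 and 182.5 in WT hearts, in the same order. For both genes, WT replicate 2 lay among the lowest libraries and WT replicates 1 and 3 were the highest. The log2 fold change was -0.30 for *Hspa1a* (standard error 0.22, 95% interval -0.80 to 0.20) and -0.13 for *Hspa1b* (standard error 0.27, 95% interval -0.75 to 0.49). The adjusted p from limma was 0.442 and 0.811, so that neither gene passed. Without KOb/c replicate 2, these log2 fold changes were -0.30 and 0.05, the latter with the opposite sign. Without WT replicate 2 they were -0.53 and -0.44, and without WT replicate 3 they were -0.13 and 0.02. Few reads lay behind these values, with 91 to 159 reads per library for *Hspa1a* and 92 to 177 for *Hspa1b*, and counting error alone is 10.5% and 10.4% at the lowest of them. Of the stretches of 150 bases, the length of a read, 46% of the *Hspa1a* transcript and 40.5% of the *Hspa1b* transcript occur in another annotated gene. The division of reads between the copies is thus uncertain, and the count of *Hspa1b* over that of *Hspa1a* ran from 0.98 to 1.67 in the 6 libraries. Summed over both genes, the normalized count was 242 ± 30.6 in KOb/c and 286.5 ± 84.2 in WT hearts (SD, n = 3), with groups that overlapped.

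*Hsp90aa1* (ENSMUSG00000021270; chromosome 12, 110690605 to 110702728) encodes HSP90α. It was counted at 4002, 4390 and 3520 in KOb/c replicates 1, 2 and 3, and at 4682, 4790 and 4252 in WT hearts 1, 2 and 3. KOb/c replicate 2 lay above WT replicate 3, and the groups overlapped there only. The level in KOb/c hearts was 0.866 times that in WT hearts (95% interval 0.751 to 0.997; log2 fold change -0.21, SE 0.09, limma adjusted p = 0.206). Without KOb/c replicate 2, the log2 fold change was -0.28 with a limma adjusted p of 0.156, and without KOb/c replicate 3 it was -0.12 with a limma adjusted p of 0.419. The gene shares 36.2% of its stretches of 150 bases with 3 other annotated genes.

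*Hsph1* (ENSMUSG00000029657; chromosome 5, 149614287 to 149636376) encodes HSP105, an HSP110 protein that exchanges the nucleotide of HSP70. Its normalized count was 2094, 1856 and 1581 in KOb/c replicates 1, 2 and 3, and 1425, 1722 and 1279 in WT hearts 1, 2 and 3. The highest values were those of KOb/c replicates 1 and 2, and WT replicate 2 lay above KOb/c replicate 3. The fold was 1.25 (95% interval 1.02 to 1.54), with a log2 fold change of 0.32 (SE 0.13, limma adjusted p = 0.184). Its element with 3 repeats, named above, is the longest found among the 7 genes, and no stretch of 150 bases is shared with another annotated gene. *Hsph1* has the longest transcript of the 10 genes at 4764 nt, and after a correction for length and GC content its log2 fold change was 0.22. It was 0.31 without KOb/c replicate 2, and 0.23 without KOb/c replicate 1 or WT replicate 3.

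*Dnajb1* (ENSMUSG00000005483; chromosome 8, 83608193 to 83612653) encodes HSP40, the J-domain partner of the inducible HSP70. It was counted at 1347, 852.8 and 921.4 in KOb/c replicates 1, 2 and 3, and at 1493, 978.2 and 1222 in WT hearts 1, 2 and 3. Each genotype held low and high hearts, and the highest library had 1.75 times the count of the lowest. The log2 fold change of -0.25 was close to its standard error of 0.19 (adjusted p = 0.471 from limma). It was -0.12 without KOb/c replicate 2 and -0.10 without WT replicate 1, but -0.45 without KOb/c replicate 1 and -0.41 without WT replicate 2, so that single hearts moved it in both directions.

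Of the small heat shock proteins, *Hspb6* (ENSMUSG00000036854; chromosome 7, 30552178 to 30555443) encodes HSP20, which is phosphorylated by cyclic nucleotide-dependent kinases in heart and smooth muscle. Its normalized count was 25814, 21712 and 21933 in KOb/c replicates 1, 2 and 3, and 19748, 19965 and 16762 in WT hearts 1, 2 and 3. Each KOb/c heart was above each WT heart. The fold was 1.23 (95% interval 1.05 to 1.43), a log2 fold change of 0.30 (SE 0.10, limma adjusted p = 0.121), with p = 0.1 in an exact two-sided permutation test. This was the lowest adjusted p of the 10 genes. Without KOb/c replicate 2, the log2 fold change was 0.34, and after the correction for length and GC content it was 0.40. It was 0.22 without KOb/c replicate 1 and 0.23 with all libraries rescaled to the same total. Without WT replicate 3 it was 0.22, with a 95% interval of -0.01 to 0.44 that included 0. The gene overlaps *Proser3* by 122 bp and *Lin37* by 3 bp on the opposite strand, and whether reads were counted by strand was not given in the sources used here.

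*Hspb7* (ENSMUSG00000006221; chromosome 4, 141420779 to 141425311) encodes cvHSP, a small heat shock protein of heart and skeletal muscle that binds filamin C. It was counted at 101992, 76473 and 75752 in KOb/c replicates 1, 2 and 3, and at 77442, 74869 and 68712 in WT hearts 1, 2 and 3. KOb/c replicate 1 stood far above the other 5 hearts, which lay together. The log2 fold change was 0.19 (SE 0.13, limma adjusted p = 0.399), and 0.05 without KOb/c replicate 1, while it was 0.26 without KOb/c replicate 2.

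*Cryab* (ENSMUSG00000032060; chromosome 9, 50751325 to 50756636) encodes αB-crystallin, which binds desmin and titin and was first known from the lens. Its normalized count was 43677, 36796 and 39173 in KOb/c replicates 1, 2 and 3, and 37292, 38115 and 33038 in WT hearts 1, 2 and 3. KOb/c replicate 1 was again the highest and WT replicate 3 the lowest library. The log2 fold change was 0.14 (SE 0.09, limma adjusted p = 0.387), 0.30 after the correction for length and GC content, and 0.20 without KOb/c replicate 2. It was 0.07 without KOb/c replicate 1, 0.08 without WT replicate 3 and 0.07 with all libraries rescaled to the same total. *Hspb2*, the small heat shock protein gene that lies head to head with *Cryab*, overlaps it by 1030 bp on the opposite strand. Its count was 3414, 2965 and 3470 in KOb/c, and 3970, 3595 and 3614 in WT hearts, so that each KOb/c heart was below each WT heart (log2 fold change -0.18, SE 0.08, limma adjusted p = 0.206). After the correction for length and GC content, the log2 fold change of *Hspb2* was 0.01. Reads of the 2 genes cannot be told apart where they overlap unless strand was used.

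*Hspb1* (ENSMUSG00000004951; chromosome 5, 135887919 to 135889563) encodes HSP25, the mouse form of HSP27, which caps actin filaments. It was counted at 5423, 5131 and 4636 in KOb/c replicates 1, 2 and 3, and at 5155, 5721 and 4891 in WT hearts 1, 2 and 3. The groups overlapped, with KOb/c replicate 3 lowest and WT replicate 2 highest. The log2 fold change was -0.05 (95% interval -0.24 to 0.14, adjusted p = 0.737 from limma). In this fit alone, that bounds a difference to between 0.845 and 1.1 times the WT level at 95% confidence. Of the stretches of 150 bases in its longest transcript, 36.6% also occur in transcripts of 2 other annotated genes. The counting may have left out or shared the reads of these stretches, which the bound does not take into account. After the correction for length and GC content, the log2 fold change was 0.13 (95% interval -0.08 to 0.34), and without KOb/c replicate 2 it was -0.06.

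Transcript length moved with the difference between the genotypes across the whole table (Spearman's rho = 0.45 over 15978 genes, and genes do not vary independently). The small heat shock protein genes have short transcripts, 930 nt for *Hspb1*, 1117 nt for *Cryab*, 1980 nt for *Hspb6* and 2769 nt for *Hspb7*, against a median of 3188 nt. With a correction for length and GC content, the median log2 fold change of the 4 small heat shock proteins was 0.27, all 4 were higher, and none passed (adjusted p = 0.199 for *Hspb6* and 0.231 for *Cryab*, limma). The part of length in these differences was not tested beyond this correction.

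**Figure D3:**
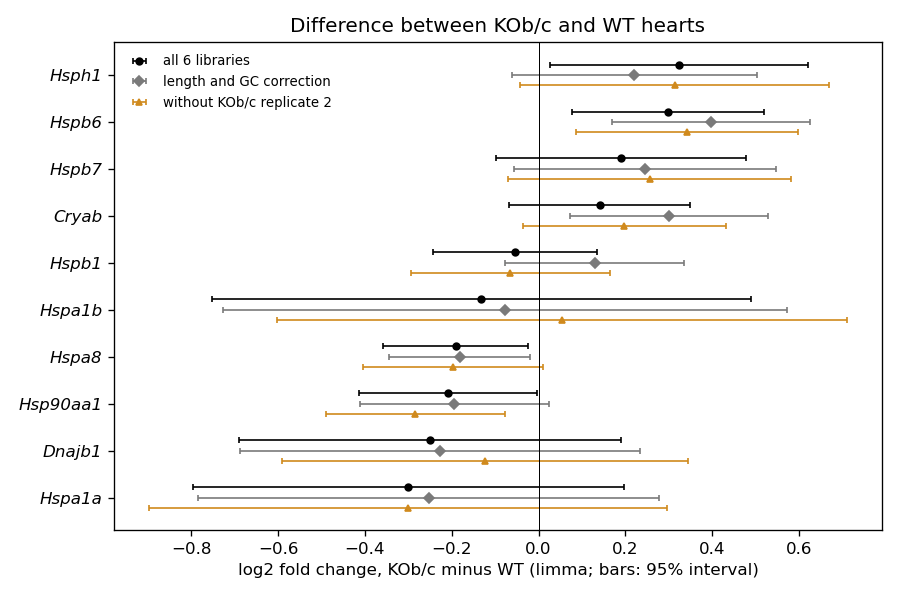
Log2 fold change of KOb/c over WT for each gene with its 95% interval from limma, from all 6 libraries (black), after the length and GC correction (grey) and without KOb/c replicate 2 (orange). *Hsph1*, *Hspb6*, *Hspa8* and *Hsp90aa1* have intervals that exclude 0 with all libraries, yet none passed the adjusted test.

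Across the 6 hearts, several of the chaperone genes varied together. These correlations are a description over 6 libraries, which share 1 scaling to library size. Pearson's r of log2 levels was 0.95 between *Hspb6* and *Cryab*, 0.90 between *Hspb7* and *Cryab* and 0.88 between *Hspb6* and *Hspb7*, which were highest together in KOb/c replicate 1 and lowest together in WT replicate 3. *Hsph1* followed them, with r = 0.90 with *Hspb6*, and not the other HSF1 targets, with r = -0.60 with *Hspa1a* and -0.58 with *Hspa1b*. *Hspa8* had r = 0.83 with *Hsp90aa1*, and also 0.68 with *Dnajb1* and 0.62 with *Hspa1a*. *Hspb1* was closest to *Hsp90aa1* (r = 0.70) and not to the other small heat shock proteins (r from 0.23 to 0.39). Between any 2 of *Hspa1a*, *Hspa1b* and *Dnajb1*, r was 0.71 to 0.74.

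*Dnajb1* varied widely within each genotype. It was high in KOb/c replicate 1, WT replicate 1 and WT replicate 3, and low in the other 3 hearts. Immediate early genes are switched on within minutes of stimulation or of handling of a tissue. Of the 10 listed, *Atf3* (r = 0.97) and *Jun* (r = 0.93) followed *Dnajb1* most closely. The rest ran from -0.18 for *Egr1* to 0.72 for *Fosb*, with *Zfp36* at 0.27, *Junb* at 0.48, *Dusp1* at 0.50, *Nr4a1* at 0.60 and *Ier2* at 0.66. Genes outside the list were closer to *Dnajb1* than *Atf3* was, among them *Ammecr1l* (r = 0.989) and *Apool* (r = 0.982). *Jun* was counted at 4604, 2181 and 2818 in KOb/c replicates 1, 2 and 3, and at 4580, 2267 and 3263 in WT hearts 1, 2 and 3. *Atf3* was counted at 287.8, 91 and 123.3 in KOb/c, and at 287.9, 129.9 and 169.1 in WT hearts. KOb/c replicate 1 and WT replicate 1 were thus high for *Jun*, *Atf3* and *Dnajb1*. WT replicate 3 lay close to the mean log2 level of *Jun* (0.06 above) and *Atf3* (0.03 above). *Fos* (r = 0.20) did not share the pattern, at 545.8, 106.5 and 559.6 in KOb/c, and at 112.7, 102.9 and 822.9 in WT hearts. Of the 10 immediate early genes, 5 were higher and 5 lower in KOb/c with a median log2 fold change of 0.03, and 0 had an unadjusted p under 0.05. *Jun* and *Atf3* were picked for likeness after their values were seen, and their part in the spread of *Dnajb1* was not tested.

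**Figure D4:**
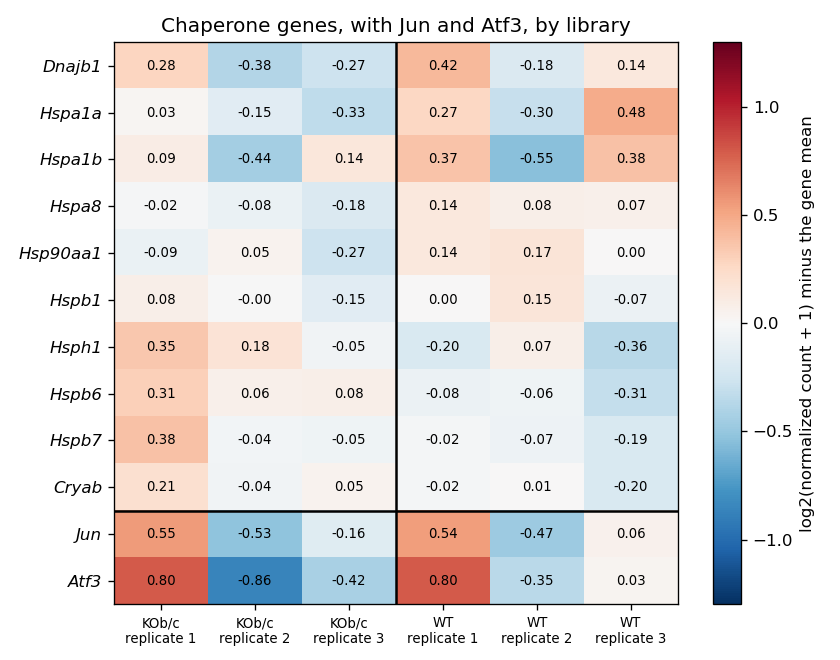
Log2(normalized count + 1) of each chaperone gene, and of *Jun* and *Atf3* below the line, minus the gene's mean over the 6 libraries. *Dnajb1*, *Jun* and *Atf3* lie above their means only in KOb/c replicate 1, WT replicate 1 and WT replicate 3, whereas *Hsph1*, *Hspb6*, *Hspb7* and *Cryab* are highest in KOb/c replicate 1 and lowest in WT replicate 3.

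Of all other genes tested, those most like the mean of *Hspa1a*, *Hspa1b*, *Dnajb1* and *Hsph1* over the 6 hearts were *Dhx15*, *Prpf4b*, *Zbtb2*, *Ccdc30* and *Nrarp* (Pearson's r from 0.98 to 0.99). Those most like the mean of the 4 small heat shock proteins were *Bhlhe22*, *Lrrc24*, *Taf2*, *Cnst* and *St3gal3* (r = 0.99 for each). Each of these 10 genes had groups that overlapped. They were taken from 16016 genes over 6 libraries, and no test was made.

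The other chaperone genes were read by family, and 0 genes of any list passed the adjusted test in either direction. Of 11 further HSP70 and HSP110 genes, 8 were higher and 3 lower, with a median log2 fold change of 0.04, and 3 had an unadjusted p under 0.05, against 23.5% of all genes. *Hspa12a*, a distant HSP70 relative, was highest (2236 ± 80 in KOb/c and 1838 ± 158 in WT hearts, log2 fold change 0.29, adjusted p = 0.0947 from limma), followed by *Hspa4l*, an HSP110 gene (log2 fold change 0.26). *Hspa1l*, the testis HSP70 gene 546 bp from *Hspa1a*, was lowest at -0.15, followed by *Hspa14* at -0.13. Of 15 further J-domain genes, 8 were higher and 7 lower, and 2 had an unadjusted p under 0.05, against the same 23.5%. *Dnaja1*, a farnesylated partner of HSC70 and a target of HSF1, was lowest (3396 ± 208 in KOb/c and 4620 ± 1039 in WT hearts, log2 fold change -0.42, adjusted p = 0.121 from limma), with each KOb/c heart below each WT heart. *Dnajb5* followed at -0.28, and *Dnajb12* (0.26) and *Dnajb14* (0.20) were highest. After the correction for length and GC content, *Hspa12a* was at 0.13, *Hspa4l* at 0.03, *Hspa1l* at -0.09 and *Hspa14* at -0.05. With it, *Dnaja1* was at -0.55, *Dnajb5* at -0.37, *Dnajb12* at 0.29 and *Dnajb14* at -0.03. *Dnaja1* was at -0.41 and *Hspa12a* at 0.31 without KOb/c replicate 2.

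Of 14 genes of HSP90 and its co-chaperones, 7 were higher and 7 lower, and 3 had an unadjusted p under 0.05, all of them lower, against 10.5% of all genes in that direction. *Hsp90ab1*, the constitutive HSP90, had a log2 fold change of 0.15 (61337 ± 3352 in KOb/c and 55202 ± 4093 in WT hearts, SD, n = 3), with the opposite sign to *Hsp90aa1*, and neither passed the test. *Unc45b*, the muscle co-chaperone that folds myosin, was at 0.12. The lowest were *Sugt1* (-0.22) and *Cacybp* (-0.18), whose groups did not overlap. After the correction for length and GC content, *Sugt1* was at -0.41, *Cacybp* at -0.08, *Hsp90ab1* at 0.20 and *Unc45b* at 0.08. The 3 further small heat shock proteins in the table, *Hspb2*, *Hspb3* and *Hspb8*, had lower means in KOb/c, with a median log2 fold change of -0.16 that was 0.01 after the correction for length and GC content. *Hspb3* was at 0.0065 and *Hspb2* at -0.11 without KOb/c replicate 2. *Cryaa*, the fourth of the list, is not among the genes analysed here.

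Of 9 BAG and other nucleotide exchange genes, 7 had groups that did not overlap, 4 with higher and 3 with lower values in KOb/c, against 15.6% and 14.6% of all genes in these directions. An unadjusted p under 0.05 was found for 4 of the 9, against 23.5% of all genes. *Bag3*, which links HSP70 to HSPB8 and to the filamin of the Z-disc, was highest (7661 ± 1025 in KOb/c and 6223 ± 343 in WT hearts, log2 fold change 0.29, adjusted p = 0.123 from limma), followed by *Bag4* (0.27). *Bag3* was at 0.36 without KOb/c replicate 2. *Grpel1*, the exchange factor of mitochondrial HSP70, was lowest (-0.23), followed by *Bag5* (-0.11). With the correction for length and GC content, *Bag3* was at 0.36, *Bag4* at 0.18, *Grpel1* at -0.25 and *Bag5* at -0.04. Of the 4 genes of heat shock factors and their regulators, *Hsf2* was highest (0.13). *Hsbp1*, whose product binds HSF1, was lowest (4657 ± 159 in KOb/c and 5331 ± 233 in WT hearts, log2 fold change -0.19, adjusted p = 0.116 from limma). With the same correction, *Hsf2* was at 0.07 and *Hsbp1* at -0.06. *Hsf1* itself was at 1442, 1538 and 1395 in KOb/c replicates 1, 2 and 3, and at 1473, 1681 and 1313 in WT hearts 1, 2 and 3, with groups that overlapped.

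Of 10 chaperonin genes, 4 were higher and 6 lower, between *Tcp1* (0.05) and *Hspe1*, the mitochondrial HSP10 (-0.22), with *Cct8* (0.04) and *Cct5* (-0.20) next to them. After the correction for length and GC content, *Hspe1* was at -0.07, *Cct5* at -0.12, *Tcp1* at 0.07 and *Cct8* at 0.11. Of 16 HSF1 targets outside the 10 genes, 8 were higher and 8 lower, with a median of -0.02, and 5 had an unadjusted p under 0.05, 2 higher and 3 lower, against 13.0% and 10.5% of all genes. *Bag3* was among the higher genes of this list, and *Dnaja1* and *Hspe1* were lowest.

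Of 7 genes of chaperone-assisted autophagy and of small heat shock protein clients, 5 were higher and 2 lower, with a median log2 fold change of 0.24 that was 0.13 after the correction for length and GC content. An unadjusted p under 0.05 was found for 5 of them, 4 higher and 1 lower, against 13.0% and 10.5% of all genes in these directions. *Synpo2*, whose product myopodin takes part in filamin turnover, was highest (6134 ± 239 in KOb/c and 4523 ± 650 in WT hearts, log2 fold change 0.45, adjusted p = 0.0815 from limma), and it was 0.20 after the correction and 0.43 without KOb/c replicate 2. *Stub1*, the ubiquitin ligase CHIP, was lowest (-0.20), and it was -0.08 after the correction. *Des*, the gene of desmin, was counted at 71735, 72327 and 63909 in KOb/c replicates 1, 2 and 3, and at 57116, 63098 and 56025 in WT hearts 1, 2 and 3, with each KOb/c heart above each WT heart. *Des* was named after its values were seen.

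**Figure D5:**
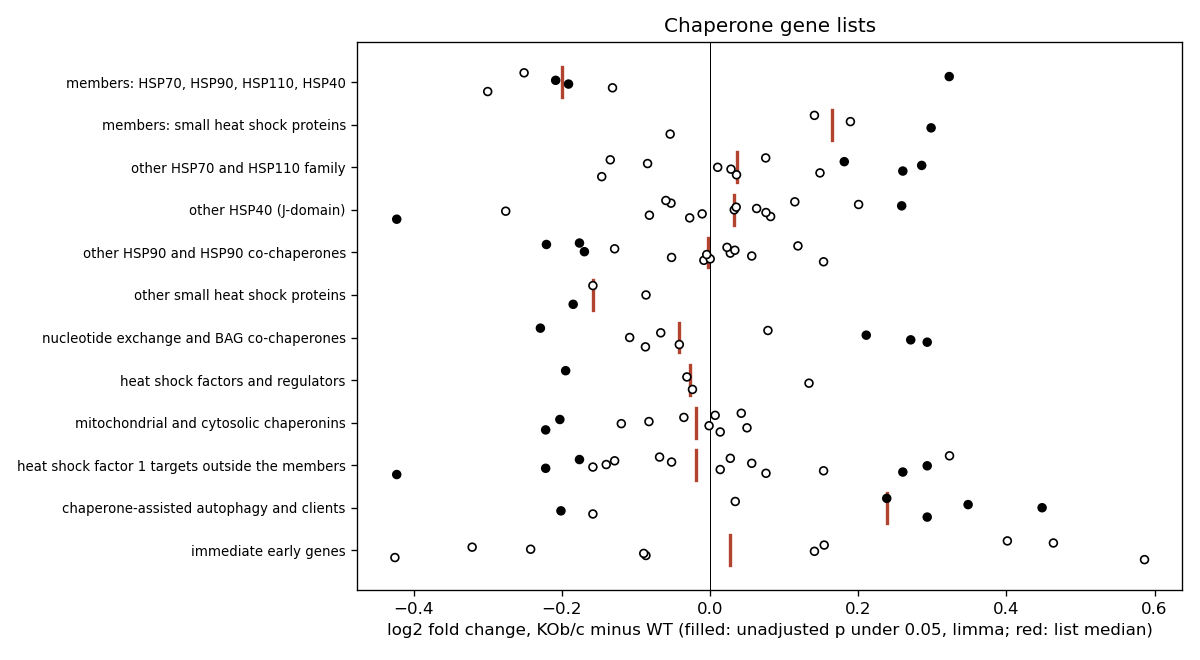
Log2 fold change of KOb/c over WT for each gene of the 12 lists, with filled points at an unadjusted p under 0.05 and the list median in red. The 4 small heat shock proteins lie mostly to the right and the other 6 of the 10 genes mostly to the left, and the medians of the other lists lie near 0, apart from -0.16 for the other small heat shock proteins and 0.24 for the autophagy and client genes.

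Markers of other cell types were read beside these values. Skeletal muscle, which also makes *Hspb6*, *Hspb7* and *Cryab*, had 5 of 6 listed genes in the table, with a summed normalized count of 107.2 to 1344 in KOb/c and 211 to 468 in WT hearts. *Myh4* is not among the genes analysed here. Their sum was highest in KOb/c replicate 2. Of the 5 lens genes, only *Bfsp1* was in the table. Fat markers summed to 1000.4 to 6430 in KOb/c and 2245 to 4907 in WT hearts, and erythroid genes to 29390 to 133453 and 52272 to 116933, with ranges that overlapped. Lymphocyte markers (173.7 to 234.1 in KOb/c and 171.1 to 362.8 in WT), endothelial (39461 to 42579 and 38637 to 39619), fibroblast (77484 to 92360 and 78197 to 82437), macrophage (5855 to 5918 and 5754 to 6297) and smooth muscle markers (20191 to 23691 and 14875 to 27491) overlapped between the genotypes as well. Only the cardiomyocyte sum was apart between them, at 2773240 to 3096700 in KOb/c and 2483850 to 2584690 in WT hearts. Of its 8 genes, 2 were higher and 3 lower in each KOb/c heart. Among the higher was *Myh6*, the adult heart myosin, at 1259230, 1132830 and 1086160 in KOb/c replicates 1, 2 and 3, against 742963, 869071 and 765017 in WT hearts. *Myh6* is a large part of this sum, so the sum is no measure of cardiomyocyte content. The part of these markers in the chaperone values was not tested.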

How the data were processed

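RNAseq was analysed from a deposited table of normalized counts, a signal that the authors obtained by dividing the reads on each gene by 1 size factor per library. The submitters' processing notes name Trimmomatic 0.36, STAR 2.5.2b, featureCounts of Subread 1.5.2, DESeq2 and GRCm38. The annotation, the strand setting and the treatment of reads that match several genes were not given in the sources used here, and near-identical copies lose or share reads depending on the last. In each library, 100% of the values were whole multiples of 1 step within 0.01 of a read, from which read numbers were taken. Libraries held 41364857 to 49100802 reads on genes. Genes with few reads are not in the table, and the lowest mean was 9.89.

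Symbols were matched for 15980 of 16018 identifiers, with positions and lengths from GENCODE M21 (GRCm38). Genotype and replicate came from the sample labels, and each heart is 1 animal. For 16016 genes with a mean of at least 10, log2(normalized count + 1) was fitted by genotype in limma 3.58.1 under R 4.3.3, two-sided and with the prior variance following the level, with Benjamini-Hochberg adjustment at 0.05. Fold changes on this scale understate those of low genes. Single genes were also compared with exact permutation tests. The length and GC correction subtracted splines of 5 degrees of freedom from each library. The procedure was tested on simulated data. The alternatives were other pseudocounts, filters, scalings and weights, no trend, a replicate block, the length and GC correction and each library left out.

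The 10 genes, the lists and the tests were chosen with earlier results of these data known. The genes named are the 10, the highest and lowest of each list (2 each, or 1 each for lists of under 8), the 5 most like each of 2 mean profiles, *Slc4a4* and near neighbours. 1 gene that this rule names is not reported here.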

Additional observations from a re-analysis of the deposited data

How the results depend on the processing

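None of the 10 chaperone genes passed 0.05 by limma in any of the 17 alternatives, where the lowest adjusted p was 0.0736. Of the 10 genes, 8 kept their direction throughout. The log2 fold change of *Hspa1b* lay between -0.44 and 0.054 with each library left out in turn, and was 0.054 without KOb/c replicate 2 and 0.02 without WT replicate 1 or WT replicate 3. That of *Hspb1* lay between -0.10 and 0.0091 with a library left out (above 0 without KOb/c replicate 3 or WT replicate 2) and was 0.13 after the length and GC correction, with or without the replicate block. The median over the 10 genes was -0.09, and 0.026 after that correction, alone or with the replicate block; the cause was not tested. Of all genes, 0 passed, and between 0 and 3 with a library left out. The 3 were *Nppb*, *Slc4a4* and *Doc2g*, lower without KOb/c replicate 2. Rescaling to the same total lowered the median of all genes from -0.00 to -0.08 and gave 1259 higher and 2539 lower genes at an unadjusted p under 0.05, against 2083 and 1681. With the replicate block, 0 genes passed, with 3924 at an unadjusted p under 0.05. Deviations of same-numbered hearts correlated with r = 0.23, 0.07 and -0.03, which cannot decide whether they were handled as pairs. The labels state no pairing. In the replicate block, the standard error of *Dnajb1* was 0.08, against 0.19 in the reported fit, with a limma adjusted p of 0.137. That of *Hspa1b* was 0.15, against 0.27, with a limma adjusted p of 0.624. Count tests on the recovered reads had been planned and were not run. Counting error was largest for *Hspa1a* and *Hspa1b* among the 10 genes.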
